A study of Xenopus laevis with 12 samples.

Results

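The sestrin gene sesn1 and the cyclin gene ccng2 were followed in Geminin-injected and uninjected ectoderm of the frog Xenopus laevis. Every probe set with a sesn1 or ccng2 symbol was taken, which gave 3 of the 15491 probe sets on the array and 2 of 7531 distinct gene symbols. Sesn1.L was read by 2 probe sets, here called probe sets 1 and 2, and ccng2.L by 1. The suffixes mark the gene copies on the long (.L) and short (.S) chromosomes of this allotetraploid frog. Sesn1.S and ccng2.S were not analysed here, and probes designed for one copy can also bind RNA of the other. The genes were proposed with results of these arrays already known, so their values are given as a description, with no p-value.

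The 12 one-colour Affymetrix arrays fell into 4 groups of 3: Geminin-injected explants at stage 12, uninjected explants at stage 12, Geminin-injected explants at stage 10.5 and uninjected explants at stage 10.5. Injected embryos had received 300 pg of xGemininΔcoil RNA, a form of the replication licensing inhibitor Geminin named as without its coil, in the animal hemisphere of each blastomere after the first cleavage. The labels do not say whether this was the amount per blastomere or per embryo. All groups were animal caps, pieces of prospective ectoderm cut out at stage 8 to 9 and pooled at 80 per sample. They developed at 25 °C in a salt solution (0.7x MMR) to early (10.5) or late (12) gastrula, and 20 µg of total RNA was taken. The comparison group received no RNA, so injection itself is part of each injected against uninjected difference. Each injected array had an uninjected partner from the same experiment, which made 3 pairs per stage.

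Sestrin 1 is a stress-inducible protein. In mammals its gene is a target of FoxO factors, which act when insulin and growth factor signalling is low. The protein restrains mTORC1, the kinase complex that drives growth, and is linked to defence against oxidants. Cyclin G2 is an unusual cyclin that does not drive the cell cycle forward. It binds the phosphatase PP2A, its gene is induced by FoxO factors in mammals, and its level is high in arrested cells. The genes are thus read together as markers of stress, arrest and FoxO activity.

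The geminin gene copy gmnn.L, read as a check of the injection, had deposited intensities of 3203 to 13754 in injected explants and 116 to 4576 in uninjected explants at stage 12. At stage 10.5 they were 3446 to 10464 in injected and 233 to 375 in uninjected explants. The library labelled uninjected, stage 12, experiment 3 gave the 4576, far above the other uninjected libraries. It correlated at 0.990 over all probe sets with that of experiment 2, and the injected libraries of these experiments correlated at 0.985. Values this close do not tell whether the label holds, and correlations with injected libraries are not given here. The other copy, gmnn.S, gave 145 to 513 in injected and 49.9 to 261 in uninjected explants at stage 12, with 250 in that library. Of 25 ectoderm marker genes tested, 5 rose and 18 fell at stage 12 in injected explants (limma, adjusted p below 0.05, which 41.2% of all probe sets tested passed). There the summed level of the list was 25763 to 28220, against 39777 to 47602 in uninjected explants. At stage 10.5 the sums were 19751 to 22558 in injected and 29500 to 39709 in uninjected explants. Mesoderm markers summed to 369 to 472 in injected and 256 to 293 in uninjected explants at stage 12, with 11 of 16 below the signal filter. Endoderm markers summed to 322 to 418 in injected and 592 to 692 in uninjected explants (12 of 19 below the filter), and organizer markers to 373 to 438 in injected and 569 to 660 in uninjected explants (12 of 17 below it). At stage 10.5 the sums of these 3 lists overlapped between injected and uninjected explants. Of 5 immune and blood markers, 4 were below the filter. The part of these shifts in the results on sesn1.L and ccng2.L was not tested.

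At stage 12 the normalised level of sesn1.L was roughly 4-fold higher in injected explants than in uninjected explants of the same experiments, and the ratios of deposited intensities were mostly larger. Probe set 1 had deposited intensities of 95.21, 95.59 and 72.64 in injected explants of experiments 1, 2 and 3, against 13.65, 16.17 and 20.03 in uninjected explants. Every injected array was brighter than every uninjected one, and the ratios within the pairs were 6.98, 5.91 and 3.63. On the level used for all further comparisons, log2(intensity + 16) after quantile normalisation, probe set 1 read 7.34, 6.84 and 6.45 in injected explants. In uninjected explants it read 5.08, 4.80 and 4.996. The groups did not overlap, and injected explants spread more widely (6.88 ± 0.45, mean ± SD, n = 3) than uninjected explants (4.96 ± 0.14).

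Probe set 2, which reads the same gene with other probes, gave deposited intensities of 45.47, 84.92 and 102.08 in injected explants, against 3.47, 14.79 and 15.16 in uninjected explants. The ratios within the pairs were 13.1, 5.74 and 6.73, the largest of them against the dimmest uninjected array. The normalised levels were 6.48, 6.68 and 6.89 in injected explants and 4.40, 4.74 and 4.80 in uninjected explants. The groups again did not overlap, and the means were 6.68 ± 0.20 in injected and 4.64 ± 0.21 in uninjected explants (SD, n = 3 each). In the 3 pairs probe set 2 was higher by 2.08, 1.94 and 2.09 and probe set 1 by 2.26, 2.04 and 1.45. The spread over pairs was thus 0.08 (SD) for probe set 2 and 0.42 for probe set 1, whose smallest difference came from experiment 3.

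Fitted over all arrays with the pairs as blocks, the difference was 1.92 ± 0.20 (SE, 3 pairs) for probe set 1, a 3.78-fold change, and 2.04 ± 0.19 for probe set 2, a 4.11-fold change. The SE of this fit is limma's, pooled over all 6 pairs of both stages, and so equal at each stage for a given probe set. It does not measure the spread over the 3 pairs of 1 stage alone. Among the 11618 probe sets tested the differences of probe sets 1 and 2 ranked 19 and 11 from the highest. Higher levels in injected explants with no overlap were common at this stage, and 21.1% of all probe sets tested showed them. The constant of 16 shrinks differences of dim probe sets, and sesn1.L was dim in uninjected explants at stage 12. There, only 14.4 to 21.9% of the array's probe sets lay below probe set 1 and 4.34 to 14.4% below probe set 2. In injected explants 48.1 to 62.9% lay below probe set 1 and 48.7 to 55.4% below probe set 2. With a constant of 1 the differences were 2.695 and 3.204, and with 64 they were 1.08 and 1.06. The fold is therefore set in part by the constant, while both probe sets were higher in 3 of 3 pairs, as were 36.7% of all probe sets tested. In these bulk samples, fewer cells expressing a gene and less RNA per cell cannot be told apart.

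The uninjected library with the high gmnn.L intensity did not stand apart in sesn1.L, where its 20.03 and 15.16 lay close to the other uninjected libraries. Without that pair the differences were 2.15 for probe set 1 and 2.01 for probe set 2. Without that library alone, and with no pairing, they were 1.94 and 2.12.

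**Figure D1:**
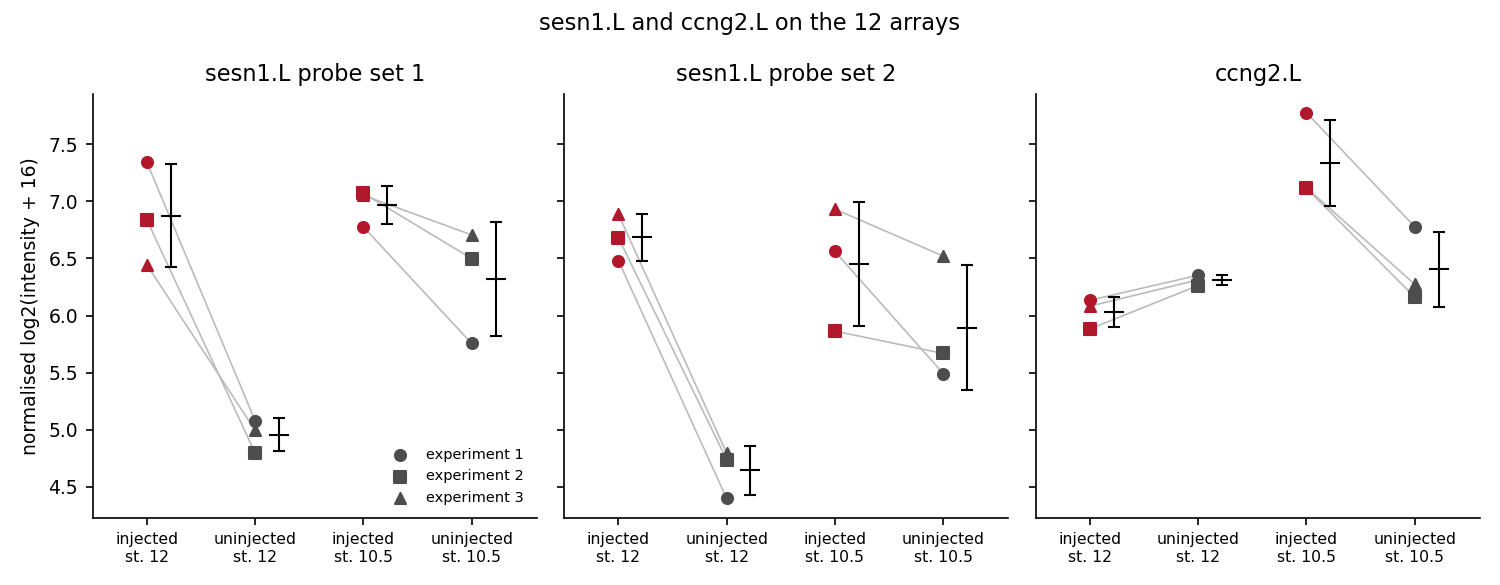
Normalised level, log2(intensity + 16), of the 3 probe sets on each array, with injected explants in red left of their uninjected partners in grey, stage 12 before stage 10.5. Symbols give the experiment, grey lines join the arrays of a pair, and black bars show the group mean ± SD (n = 3). The sesn1.L probe sets average 4.96 and 4.64 in uninjected explants at stage 12, their lowest group, and ccng2.L stands highest in injected explants at stage 10.5, at 7.34.

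At stage 10.5 sesn1.L was also higher in injected explants, by a smaller margin and with less separation of the groups. Probe set 1 had deposited intensities of 84.84, 219.34 and 103.29 in injected explants, against 35.79, 136.14 and 78.85 in uninjected explants. The array of experiment 2 was the brightest in both groups, and the ratios within the pairs were 2.37, 1.61 and 1.31. After normalisation, probe set 1 read 6.78, 7.07 and 7.05 in injected explants and 5.76, 6.50 and 6.71 in uninjected explants. The lowest injected array, at 6.78, lay just above the highest uninjected one, at 6.71, while on the deposited scale the groups overlapped. Non-overlap with higher levels in injected explants occurred in 6.82% of all probe sets tested at this stage.

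Probe set 2 had deposited intensities of 71.51, 72.89 and 92.6 in injected explants and 26.43, 58.68 and 66.55 in uninjected explants. Its normalised levels of 6.56, 5.86 and 6.93 in injected explants overlapped with the 5.49, 5.67 and 6.52 of uninjected explants. The overlap came from experiment 2, whose injected array read lower than the uninjected array of experiment 3. Within pairs probe set 2 was higher by 1.07, 0.20 and 0.41, and probe set 1 by 1.02, 0.57 and 0.35. Both probe sets thus showed their largest difference in experiment 1, where the uninjected array was lowest. The fitted differences were 0.65 ± 0.20 (SE, 3 pairs) for probe set 1 and 0.56 ± 0.19 for probe set 2, ranks 310 and 476 from the highest of 11618. Each probe set was higher in all 3 pairs, as were 29.1% of all probe sets tested at stage 10.5. Without experiment 1 the differences were 0.46 for probe set 1 and 0.30 for probe set 2, against 0.80 and 0.63 without experiment 3.

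In uninjected explants sesn1.L was lower at stage 12 than at stage 10.5, and in injected explants the stages lay close together. The uninjected means were 4.96 at stage 12 and 6.32 at stage 10.5 for probe set 1, and 4.64 at stage 12 and 5.89 at stage 10.5 for probe set 2. The groups did not overlap for either probe set, while 46.1% of all probe sets tested showed no overlap in one direction or the other. Fitted without pairs, since the labels do not link experiments between stages, the difference of stage 12 minus stage 10.5 in uninjected explants was -1.36 ± 0.28 (SE, n = 3 arrays per group) for probe set 1 and -1.25 ± 0.32 for probe set 2. These amount to levels lower by 2.57- and 2.38-fold at stage 12. In injected explants the same differences were -0.09 ± 0.28 and 0.23 ± 0.32, each smaller than its SE, and the groups overlapped. The sign of these small differences depended on the setting. Without injected stage 12 experiment 3 probe set 1 gave 0.12, and without injected stage 10.5 experiment 2 probe set 2 gave -0.06. On log2(intensity + 16) without the quantile step, the injected differences were -0.45 for probe set 1 and -0.07 for probe set 2. The median over all probe sets of the same injected difference was -0.20 there.

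Over the 4 groups, sesn1.L probe set 1 was highest in injected explants at stage 10.5 (6.97 ± 0.16, SD, n = 3), followed by injected explants at stage 12 (6.88 ± 0.45). Uninjected explants at stage 10.5 came next (6.32 ± 0.50) and uninjected explants at stage 12 last (4.96 ± 0.14). Probe set 2 had injected explants at stage 12 first (6.68 ± 0.20) and at stage 10.5 second (6.45 ± 0.54), then uninjected explants at stage 10.5 (5.89 ± 0.55) and stage 12 (4.64 ± 0.21). In both orders only the last step, to uninjected explants at stage 12, separated neighbouring groups without overlap. The probe sets thus differ only in the order of the 2 injected groups, which did not differ beyond their spread. Their centred profiles over the 12 arrays differed by a root mean square of 0.43, and their Pearson correlation was 0.874, a description over arrays that share 4 groups.

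For ccng2.L the difference between injected and uninjected explants had opposite signs at the 2 stages. At stage 10.5 its deposited intensities were 175.11, 227.81 and 109.63 in injected explants, against 88.37, 99.9 and 52.46 in uninjected explants. Each injected array was brighter than its partner, with ratios of 1.98, 2.28 and 2.09. The normalised levels were 7.78, 7.11 and 7.12 in injected explants and 6.78, 6.16 and 6.27 in uninjected explants. The groups did not overlap on either scale. Of all probe sets tested, 6.82% showed non-overlap with higher levels in injected explants at this stage, and 29.1% were higher in all pairs. In both groups experiment 2 was the highest on the deposited scale and experiment 1 after normalisation.

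The pair differences of ccng2.L at stage 10.5 were 1.00, 0.95 and 0.85, a mean of 0.93 with an SD of 0.08 over pairs. The spread over pairs was wider for sesn1.L at this stage, with SDs of 0.34 and 0.45. The fitted difference was 0.93 ± 0.15 (SE, 3 pairs), a 1.91-fold higher level in injected explants and rank 92 from the highest of 11618. Leaving out any 1 pair kept it between 0.90 and 0.98. In injected explants 59.2 to 69.6% of the array's probe sets lay below ccng2.L, against 43.3 to 53.6% in uninjected explants, so the probe set was not near the low end of the array.

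At stage 12 ccng2.L was slightly lower in injected explants. The deposited intensities were 32.65, 45.55 and 53.46 in injected explants and 42.34, 61.34 and 67.65 in uninjected explants. The groups overlapped on this scale, although each injected array was dimmer than its partner, with ratios of 0.771, 0.743 and 0.790. The normalised levels of 6.13, 5.88 and 6.08 in injected explants did not overlap with the 6.35, 6.26 and 6.31 of uninjected explants. Non-overlap with lower levels in injected explants occurred in 16.7% of all probe sets tested at stage 12, and lower levels in all 3 pairs in 26.6%. The pair differences were -0.22, -0.38 and -0.23, and the fitted difference was -0.28 ± 0.15 (SE, 3 pairs), which is 1.21-fold lower. It ranked 2961 from the lowest of 11618 and was thus of ordinary size for this stage. Without the quantile step it was -0.29, with median centring -0.27, and without the pair of experiment 3 it was -0.30.

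For ccng2.L the stages lay apart in injected explants and close together in uninjected explants. In uninjected explants ccng2.L averaged 6.31 ± 0.05 at stage 12 and 6.40 ± 0.33 at stage 10.5 (SD, n = 3 each), and these groups overlapped. The fitted difference of -0.09 ± 0.24 (SE) was smaller than its error, became 0.09 without uninjected stage 10.5 experiment 1, and was -0.38 without the quantile step. In injected explants ccng2.L averaged 6.03 ± 0.13 at stage 12 and 7.34 ± 0.38 at stage 10.5, with no overlap, which held in one direction or the other for 35.8% of all probe sets tested. That difference was -1.30 ± 0.24, a 2.47-fold lower level at stage 12, and it was -1.60 without the quantile step. The order over the groups was injected at stage 10.5, uninjected at stage 10.5, uninjected at stage 12 and injected at stage 12. The middle 2 did not differ beyond their spread, and the first and the last group stood clear of their neighbours.

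**Figure D2:**
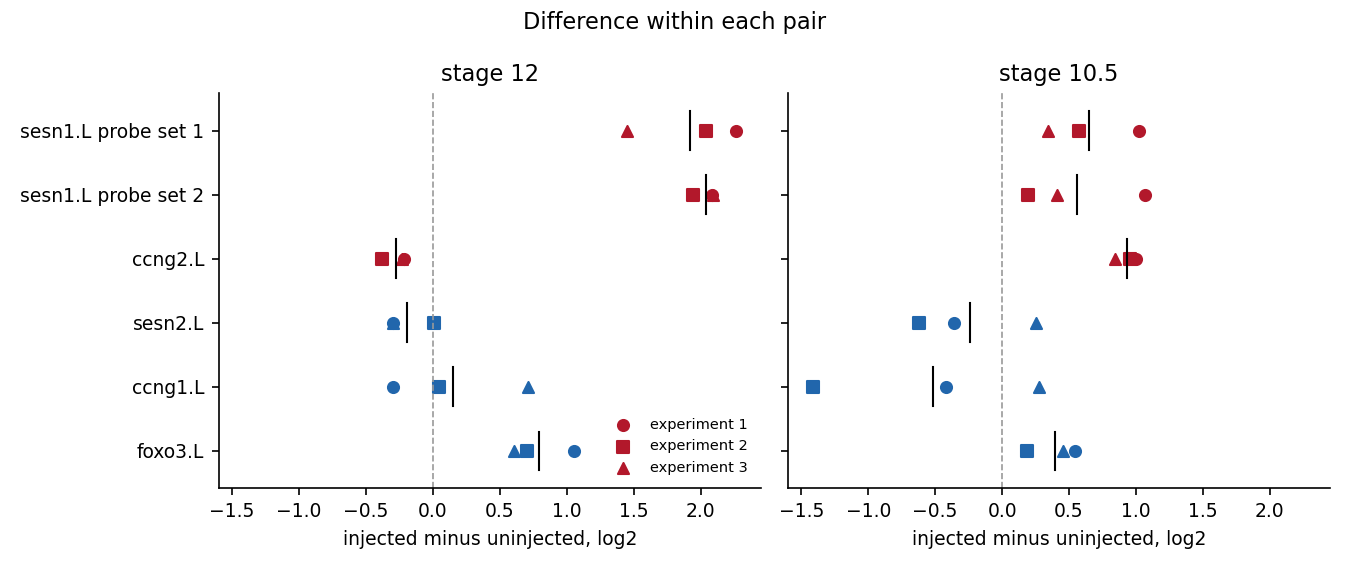
Injected minus uninjected difference (log2) in each pair for the 3 probe sets of sesn1.L and ccng2.L in red and for sesn2.L, ccng1.L and foxo3.L in blue, at stage 12 (left) and stage 10.5 (right). Symbols give the experiment and black bars the mean of 3 pairs. Ccng2.L lies below 0 in all pairs at stage 12, between -0.38 and -0.22, and above 0 in all pairs at stage 10.5, between 0.85 and 1.00, while sesn1.L is above 0 in all pairs at both stages.

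The injected against uninjected difference of both genes was thus larger at one stage, at stage 12 for sesn1.L and at stage 10.5 for ccng2.L. The fitted difference between the stages, stage 12 minus stage 10.5, was 1.27 ± 0.28 (SE, 3 pairs per stage) for sesn1.L probe set 1 and 1.48 ± 0.26 for probe set 2. For ccng2.L it was -1.21 ± 0.22. Leaving out 1 experiment at both stages kept these values within 1.17 to 1.36, 1.35 to 1.71 and -1.28 to -1.15. The 5.77% of all probe sets tested that passed in this comparison are given as the background only, since the genes were chosen on these arrays. The profiles of ccng2.L and of sesn1.L probe set 1 differed by a root mean square of 0.90 over the 12 arrays, more than the 0.43 between the sesn1.L probe sets. The arrays with the most ccng2.L signal, injected at stage 10.5, were also high in sesn1.L, and those with the least sesn1.L, uninjected at stage 12, were intermediate in ccng2.L.

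**Figure D3:**
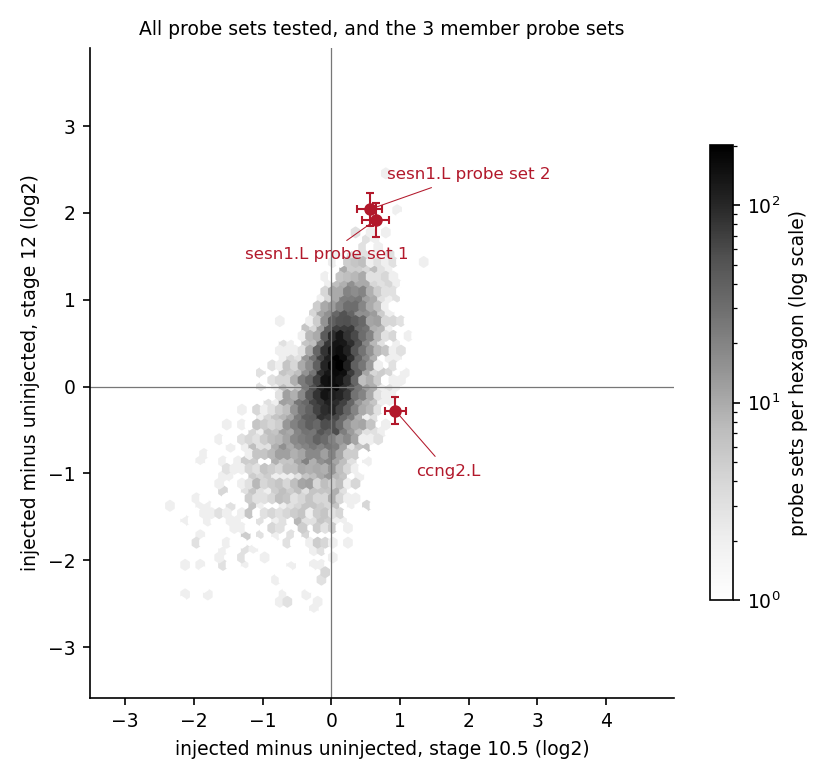
Injected minus uninjected difference (log2) at stage 12 (vertical axis) against stage 10.5 (horizontal axis) for the 11618 probe sets tested, as hexagons shaded by their number on a log scale, with the 3 probe sets of sesn1.L and ccng2.L in red (fitted value ± SE). Both sesn1.L probe sets lie in the upper right at 1.92 and 2.04 on the vertical axis, and ccng2.L lies to the right and just below 0.

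The named genes with the most similar profiles were found by the root mean square difference of centred levels over the 12 arrays. A shared course over the groups follows from this selection and is a description only. For sesn1.L probe set 1, the brighter one, these were nelfa.L (0.33), nhej1.S (0.35), cldn5.L (0.36), bicc1.S (0.36) and fbxo46.L (0.38), of 7487 candidates. Nelfa encodes a subunit of a complex that pauses RNA polymerase II, nhej1 a factor of DNA end joining and cldn5 a tight junction protein. Bicc1 encodes an RNA-binding protein and fbxo46 an F-box protein. All of these genes were lower in uninjected explants at stage 12 than in the other 3 groups on average, as sesn1.L was, and nhej1.S came closest in size with differences of 1.83 at stage 12 and 0.64 at stage 10.5. The likeness depended on the probe set. For sesn1.L probe set 2 nhej1.S ranked 2 and fbxo46.L 13, but nelfa.L ranked 52 and bicc1.S 86, and 28 probe sets of other genes lay nearer to probe set 1 than probe set 2 did.

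For ccng2.L the nearest profiles were those of paqr3.S (0.22), dnajc9.L (0.26), dguok.L (0.29), irf2.S (0.30) and furin.L (0.30). Paqr3 encodes a Golgi membrane protein, dnajc9 a co-chaperone that binds histones, dguok a mitochondrial deoxyguanosine kinase, irf2 an interferon regulatory factor and furin a protease of the secretory pathway. As selected for likeness to ccng2.L, each was highest in injected explants at stage 10.5, and the difference of injected minus uninjected explants there was 0.47 to 0.86. At stage 12 these differences were -0.36 to 0.07. For scale, the SD over the 12 arrays was 0.56 for ccng2.L and 0.89 for sesn1.L probe set 1.

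**Figure D4:**
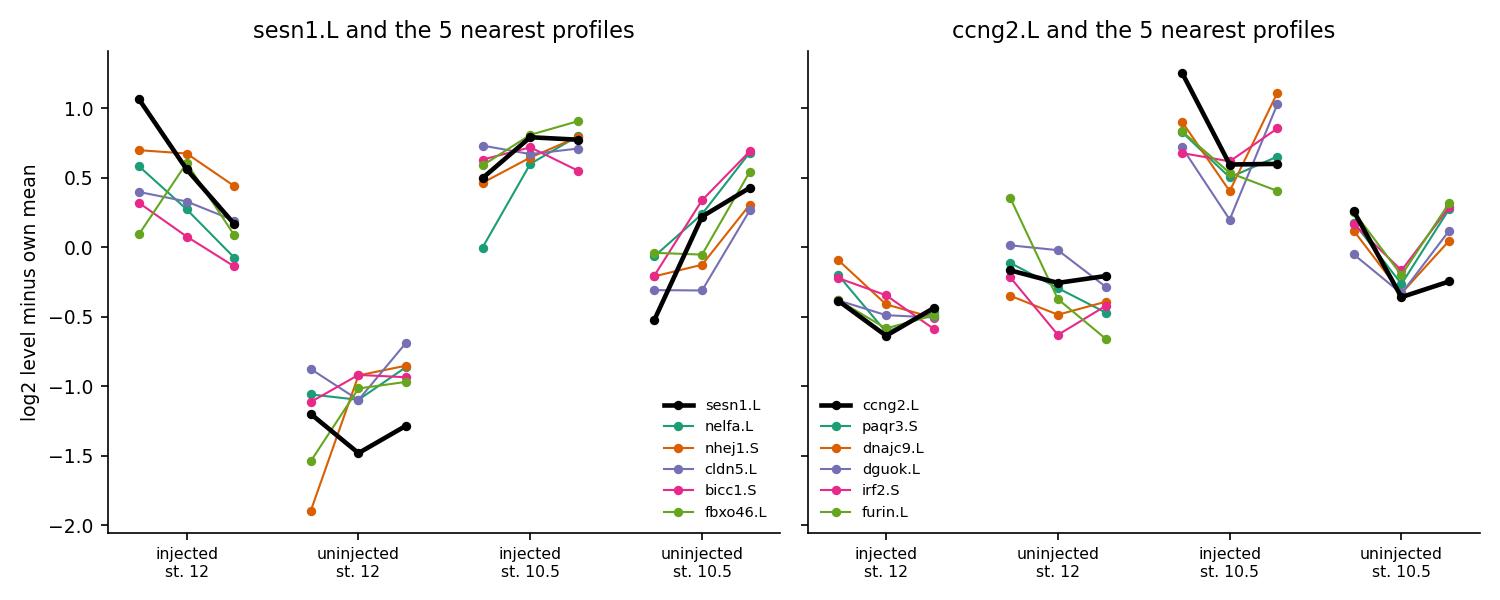
Level (log2) minus its own mean over the 12 arrays for sesn1.L probe set 1 (left, black) and ccng2.L (right, black) with the 5 nearest named profiles of each in colour. Points within a group are experiments 1, 2 and 3 from left to right, and lines only join points of one gene within a group. The sesn1.L profiles drop in uninjected explants at stage 12, and the ccng2.L profiles peak in injected explants at stage 10.5, which follows from the selection for likeness.

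The close relatives of both genes did not pass the test. Sesn2.L, another sestrin that is induced by amino acid shortage in mammals, differed by -0.19 ± 0.17 (limma, SE, 3 pairs, adjusted p = 0.38) at stage 12 and by -0.24 ± 0.17 (adjusted p = 0.456) at stage 10.5. Ccng1.L, which encodes the closest relative of cyclin G2, differed by 0.15 ± 0.27 (adjusted p = 0.676) at stage 12 and by -0.52 ± 0.27 (adjusted p = 0.28) at stage 10.5, with pairs on both sides of 0 at each stage. Sesn3, foxo1, foxo4 and foxo6 were not analysed here. The FoxO factor gene foxo3.L had deposited intensities of 42.18, 64.24 and 72.15 in injected explants and 18.37, 37.3 and 45.76 in uninjected explants at stage 12. It rose there by 0.79 ± 0.17 (adjusted p = 0.00353), and at stage 10.5 its difference was 0.39 ± 0.17 (adjusted p = 0.18), while the difference between the stages was 0.40 ± 0.24 (adjusted p = 0.329). Foxo3.L, like sesn1.L, was lower at stage 12 than at stage 10.5 in uninjected explants, with a difference of -1.05 ± 0.20 (adjusted p = 0.00232), and 16.5% of all probe sets tested fell in that comparison.

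Genes listed as FoxO targets, without sesn1 and ccng2, were split, with 5 of 18 higher and 5 lower at stage 12 and 2 higher and 4 lower at stage 10.5. Over all probe sets tested, 23.5% rose and 17.6% fell at stage 12, while 10.4% passed at stage 10.5 (3.31% higher and 7.06% lower). The medians of the FoxO targets were 0.00 and 0.18, beside 0.09 and 0.05 over all probe sets tested. In limma's fit without experiment 1 at stage 12, 6 of the 18 passed, and without experiment 2 at stage 10.5, 2 passed. Without the pairing 4 passed at stage 12 and 0 at stage 10.5 (5 there at an unadjusted p below 0.05). Fewer of all probe sets tested also passed without the pairing, and at stage 10.5 without 1 experiment. The 4 with the smallest p at stage 12 were all among those that fell. The transcription factor genes klf2.S and klf6.L fell at stage 12 by 1.84 ± 0.21 (adjusted p = 9.38e-05) and 1.42 ± 0.18 (adjusted p = 0.000152). At stage 10.5 klf2.S differed by -1.16 ± 0.21 (limma, adjusted p = 0.0038, or 0.172 without the pairing). Klf6.L differed there by 0.17 ± 0.18 (adjusted p = 0.642). The growth arrest gene gadd45a.S fell by 1.81 ± 0.22 at stage 12 (adjusted p = 0.000124). Its stage 10.5 difference was -1.55 ± 0.22 (adjusted p = 0.000756, or 0.105 without the pairing). The anti-proliferative gene btg1.L fell by 1.19 ± 0.16 at stage 12 and by 1.25 ± 0.16 at stage 10.5, with adjusted p of 0.000266 and 0.00049 (0.0846 and 0.217 without the pairing). Sod2.S, the mitochondrial superoxide dismutase and a classical FoxO target, rose by 1.25 ± 0.22 at stage 10.5 (adjusted p = 0.00349). Without experiment 2 its difference there was 1.13 (adjusted p = 0.056), and without the pairing its adjusted p was 0.0913. At stage 12 sod2.S rose by 0.75 ± 0.22 (limma, adjusted p = 0.0187, or 0.165 without the pairing). Sod2.S was the 1 listed FoxO target with a larger rise than the 0.93 of ccng2.L at stage 10.5, although ccng2.L was chosen with its values known.

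Around sesn1.L, the sestrin and mTORC1 pathway list gave 6 of 26 genes higher and 6 lower at stage 12, with a median of 0.11. Of this list 46.2% passed, beside 41.2% of all probe sets tested at stage 12 (23.5% higher and 17.6% lower). Stk11.L, which encodes the kinase upstream of AMPK, rose by 1.39 ± 0.17 (adjusted p = 0.000162, or 0.0547 without the pairing), and prkaa2.S, a catalytic subunit of AMPK, rose by 0.75 ± 0.13 (adjusted p = 0.0014). Prkag1.L, another AMPK subunit of this list, fell by 0.84 ± 0.17 at stage 12 (limma, adjusted p = 0.00297). At stage 10.5 it fell by 0.80 ± 0.17 (adjusted p = 0.0115, or 0.137 without the pairing). Its other probe set gave -0.39 and 0.09 at these stages. The prkag1.L call at stage 10.5 was lost without experiment 1 and without experiment 2. At stage 12 it was lost with no pairing and uninjected stage 12 experiment 3 left out. These 2 named AMPK subunit genes thus did not move in 1 direction, and other AMPK genes of the list are not reported here. Of 21 antioxidant genes, with .L and .S copies counted separately as in every list, 12 rose and 1 fell (61.9% passed). Their median was 0.48. Without experiment 1, 6 passed, and without experiment 2, 7 passed. Without the pairing 2 of these antioxidant genes passed (limma, 10 at an unadjusted p below 0.05). With no filter on signal, 11 rose and 4 fell. Around ccng2.L, which itself was lower, 7 of 17 cyclin G family and PP2A genes rose at stage 12, and 3 passed without experiment 1. Of this list 41.2% passed and 0 fell, while 23.5% of all probe sets tested rose and 41.2% passed in either direction. The list's median was 0.35, beside 0.09 over all probe sets tested. Among cell cycle inhibitors, 2 of 17 were higher and 7 lower at stage 12 (52.9% passed). At stage 10.5, 1 was higher and 6 lower (41.2% passed, beside 10.4% of all probe sets tested). The MYC antagonist mxi1.L fell by 2.02 ± 0.17 at stage 12 (adjusted p = 2.27e-05) and fell by 1.87 ± 0.17 at stage 10.5 (adjusted p = 7.39e-05). Among 25 DNA damage checkpoint genes 9 rose and 0 fell at stage 12 (36% passed), while 23.5% of all probe sets tested rose. Without experiment 2 or without experiment 3, 5 passed, and without the pairing 1 passed. Of 24 unfolded protein and amino acid stress genes, 1 rose and 11 fell at stage 12 (50% passed). Of 16 apoptosis genes 5 rose and 2 fell (43.8% passed), with 4 passing without experiment 3. Without the pairing fewer genes of each of the 8 lists passed at stage 12, from 4 FoxO targets down to 0 cyclin G family and PP2A genes (limma, with 5 of the last at an unadjusted p below 0.05). Fewer of all probe sets tested passed then as well. Shares over all probe sets at stage 12 without 1 experiment are not given here. The lower counts of these lists are thus not read as particular to them.

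**Figure D5:**
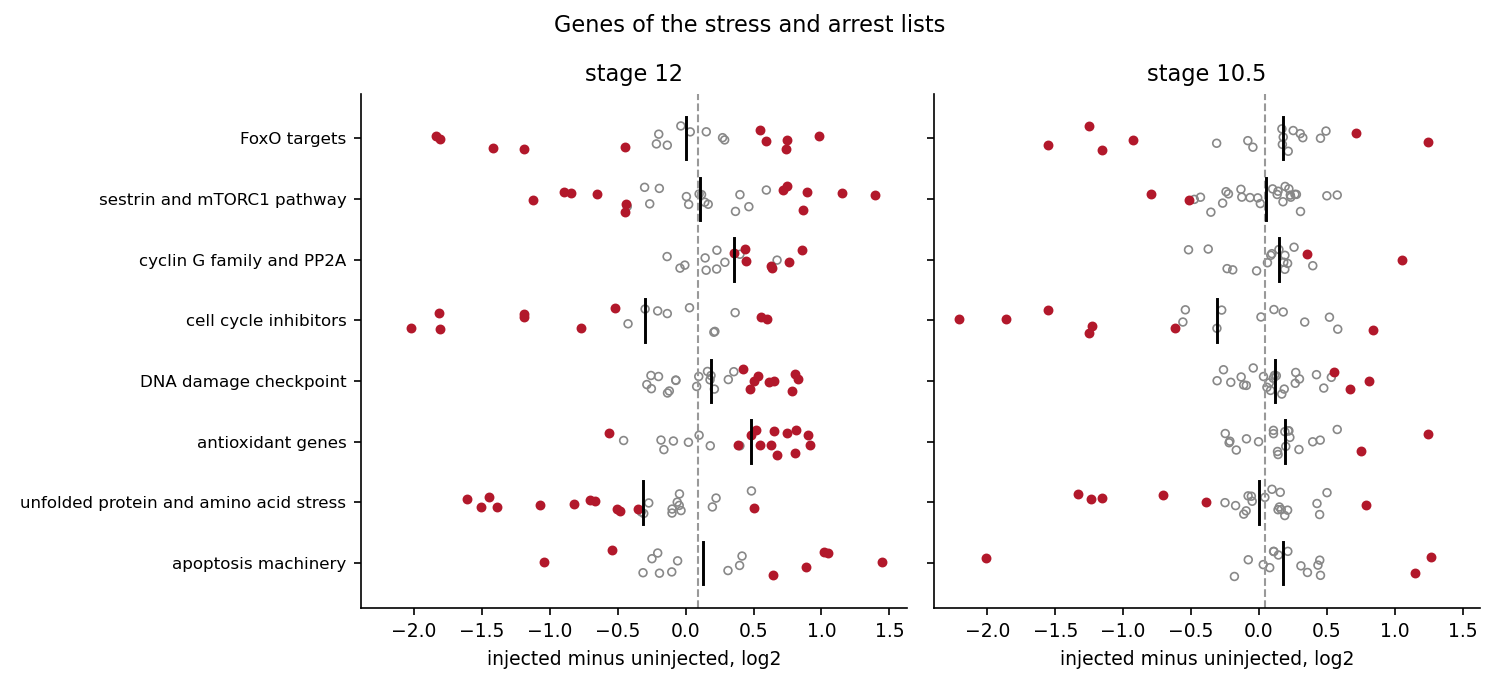
Injected minus uninjected difference (log2) of each tested gene of the 8 lists at stage 12 (left) and stage 10.5 (right), 1 point per gene. Filled red points passed an adjusted p of 0.05 in limma's paired fit, open points did not, black bars are list medians and the dashed line is the median of all probe sets tested (0.09 at stage 12, 0.05 at stage 10.5). Antioxidant genes sit mostly to the right at stage 12 (median 0.48) and cell cycle inhibitors to the left at both stages (-0.30 and -0.31).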

How the data were processed

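The authors deposited 1 intensity per probe set and array on a linear scale. How the scanner signal was summarised, corrected for background and scaled was not stated by the labels. Deposited array medians ranged from 49.0 to 145.7, and the array medians of log2(intensity + 16) spanned 1.31. These log2 values were brought to common quantiles. Probe sets with a mean signal in the lowest 25% (3873 of 15491) were dropped, while sesn1.L and ccng2.L passed. Linear models were fitted to the other 11618 with limma 3.58.1 under R 4.3.3, using lmFit and a trended eBayes, Benjamini-Hochberg adjustment and a threshold of 0.05. The number of arrays limits the precision.

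In the annotation 9304 probe sets had 1 symbol, 195 had several and 5992 had none. Symbols were updated through gene identifiers (9227 matched, 2 changed). RefSeq of Xenopus laevis v10.1 lists both copies of each gene. Positions are left out because the array's build is unnamed, and no sequences were used.

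Per the labels, injected and uninjected samples were paired by experiment and the whole experiment was repeated 3 times per stage. By this design each experiment of a stage entered the fit as a block (4 residual degrees of freedom). Deviations of partners from their group means had correlations from 0.424 to 0.693 (stage 12) and from 0.765 to 0.797 (stage 10.5). At stage 12, injected experiment 3 deviated more closely with uninjected experiment 2 (0.555) than with its partner (0.424). Injected experiment 2 correlated at 0.497 with uninjected experiment 3, and at 0.571 with its partner. These correlations thus do not set experiments 2 and 3 of stage 12 apart. With both averaged into 1, 4 DNA damage checkpoint genes passed at stage 12 instead of 9. The cyclin G family and PP2A list kept its 7, and the share over all probe sets in that fit is not given here. Stages were compared without a block (8 residual degrees of freedom). Nothing says that pairs came from separate clutches, and p-values measure only the spread between these samples. The description of uninjected stage 12 experiment 2 gives stage 10.5, and the sample was grouped by its other labels, which give stage 12.

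The genes, lists and markers were chosen with earlier results of these data known. Named genes were sesn1, ccng2, gmnn and fixed relatives, up to 4 with the smallest p among those called per list and stage, and the 5 nearest profiles of each gene. The 8 lists were FoxO targets, sestrin and mTORC1 pathway, cyclin G family and PP2A, cell cycle inhibitors, DNA damage checkpoint, antioxidant genes, unfolded protein and amino acid stress, and apoptosis machinery. Some further listed genes are not reported here. Each gene symbol had 1 probe set in a list, the brightest, and lists share genes. Alternatives of scale were log2(intensity + 16) without the quantile step, median centring, and constants of 1 and 64. For the filter they were no filter or the lowest 50% left out. Further ones were no pairing, each experiment or array left out, stage 12 experiments 2 and 3 averaged, and the experiment number as a block across stages. The paired fit was tested on simulated data with known changes at stage 12, while the difference between stages and the unpaired fit were not.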

Additional observations from a re-analysis of the deposited data

Results flagged for a closer look

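For ccng2.L the injected minus uninjected difference was below 0 in all 3 pairs at stage 12 and above 0 in all 3 pairs at stage 10.5. Over all probe sets tested, 26.6% were lower in all pairs at stage 12 and 29.1% were higher in all pairs at stage 10.5. The share with both was not computed. The difference of ccng2.L between the stages, -1.21, was not tested, since the gene was chosen on these arrays.

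Of the 44 probe sets named from the lists, 10 had a difference between injected and uninjected explants that itself differed between the stages in limma's interaction term (stage 12 minus stage 10.5, adjusted p from 0.00501 to 0.0434), while 5.77% of all probe sets tested passed. The named genes were taken for the smallest p at either stage, which favours a difference between stages, so the count is a description. The injected minus uninjected difference was higher at stage 12 for xbp1.L (1.06) and gadd45g.S (1.02). It was lower at stage 12 for dnajb9.L (-1.89), klf6.L (-1.59), tob1.S (-1.54), hspa5.L (-1.43), dnajc3.L (-1.40), hspa5.S (-1.36), cebpb.L (-1.30) and ppp2r3b.L (-1.19). Each of these 10 calls was lost without experiment 2 and without the pairing. Without experiment 2 the values were 0.75 and 0.86 for xbp1.L and gadd45g.S and -1.81 to -1.20 for the other 8. Ppp2r3b.L and gadd45g.S were also lost without experiment 1, and ppp2r3b.L, hspa5.S and dnajb9.L without experiment 3. With a constant of 1, ppp2r3b.L (adjusted p = 0.0548) and dnajc3.L (adjusted p = 0.0502) were lost too.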

How the results depend on the processing

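The signs of the differences of sesn1.L and ccng2.L between injected and uninjected explants were the same under all alternatives run at both stages. Their size depended on the constant. With a constant of 1, sesn1.L at stage 12 gave 2.695 (probe set 1) and 3.204 (probe set 2), the difference between stages 1.91 and 2.48, and the uninjected stage course -2.02 and -2.19, while ccng2.L gave 1.08 at stage 10.5 and -1.44 between stages. With 64, the stage 12 values were 1.08, 1.06 and -0.17, ccng2.L at stage 10.5 was 0.66, the differences between stages were 0.66, 0.72 and -0.82, the uninjected course of sesn1.L was -0.71 and -0.58, and the injected course of ccng2.L was -0.89. Without the quantile step sesn1.L probe set 2 at stage 12 was 1.76 (1.78 with median centring) and ccng2.L in the uninjected course -0.38. The injected course was then -0.45, -0.069 (reversed) and -1.60 for the 3 probe sets. Median centring moved the median of all probe sets in the uninjected and injected stage courses to 0.12 and 0.14. Leaving out the quantile step moved these medians to -0.23 and -0.20.

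Counts of probe sets passing depended more on the settings. Without the replicate block, 1509 passed at stage 12 (615 higher), 262 at stage 10.5 (22 higher) and 34 for the difference between stages. Then 4 and 0 FoxO targets passed at stages 12 and 10.5. With uninjected stage 12 experiment 3 also left out, 1162 probe sets and 3 FoxO targets passed at stage 12. The difference between stages had 437 with a constant of 1 and 379 with the lowest 50% left out. Without the quantile step the uninjected stage course had 1375 (493 higher) and the injected one 535 (130 higher).

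Leaving out 1 experiment gave 454 to 779 at stage 10.5 and 18 to 473 for the difference between stages, with the 18 without experiment 2. It gave 6 to 9 FoxO targets at stage 12 and 2 to 5 at stage 10.5. Leaving out 1 array gave 939 to 1643 for the injected stage course, and differences of -0.32 to 0.12 for sesn1.L probe set 1 and -0.063 to 0.47 for probe set 2 there. It gave -0.22 to 0.092 for ccng2.L in the uninjected course. Causes of these shifts were not tested. The dim signal of sesn1.L in uninjected explants at stage 12, near the low end of the arrays, limits how well its fold is known.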
